A study of Mus musculus with 30 samples.

Results

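The 6 libraries described here measured the RNA of dorsal root ganglia (DRG) of male mice, 3 after prolactin (PRL) and 3 after vehicle (Veh). They were chosen by their labels (male, DRG, PRL or Veh, replicates 1 to 3) from the 30 libraries of the series, which also covers females and hind paw tissue. All mice were C57BL/6J, an inbred laboratory strain, aged 10 to 12 weeks, and no engineered allele is named. The PRL group had 1 µg of PRL injected into the paw and the Veh group phosphate-buffered saline. The protocol lists both a lone injection and 1 injection a day for 12 days, and no label assigns a library to either. Both groups share the paw injection itself, so no uninjected mouse stands beside them. Fresh tissue was homogenised, so the RNA comes from neurons, glia, vessels and any attached tissue together, and in such bulk RNA fewer cells of a type and less RNA per cell cannot be told apart. Total RNA (500 ng) was depleted of ribosomal RNA and sequenced as reads of 50 nt. The labels do not say whether a replicate is its own animal or pool, and every p-value below therefore rests on the spread among libraries, which may be technical. The comparison asks which transcripts of the male ganglia differ when PRL, in place of vehicle, is injected into the paw; the title of the series names translation of the PRL receptor and sex differences in pain as its subject.

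DRG lie beside the spinal cord, and the neurons in them send the axons through which skin and muscle report touch, heat and pain. Their neurons are wrapped by satellite glia, and their axons by Schwann cells, which make myelin. PRL is a pituitary hormone that binds the receptor Prlr, which signals through the kinase Jak2 and the transcription factor Stat5 and turns on its own inhibitors, among them Cish and Socs2. In sensory neurons PRL is known for making ion channels of the pain pathway easier to open, an effect described mainly in females. Glucocorticoids, which recur below, act through another kind of receptor, Nr3c1, a transcription factor that binds DNA once the hormone is bound.

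The male DRG libraries held between 8986530 and 13327100 reads in genes, and 16865 to 17214 genes had a read. Levels are given as CPM, the reads of a gene scaled to the TMM-normalised size of its library. The RNA fitted the male label in all 6 libraries: each of 4 Y-linked genes (Ddx3y and Uty among them) reached 30.1 CPM or more, and Xist 6.33 CPM or less. The series text gives other numbers of male and female animals than the labels do. The sensory neuron channel Scn10a lay between 949 and 1237 CPM, the neurofilament Nefh between 1887 and 2179 CPM and the satellite glia gene Fabp7 between 119 and 178 CPM, so neurons and glia were represented in every library. Single libraries stood apart in RNA of other cell types. The summed level of 18 neutrophil genes was between 185 and 1169.8 CPM with PRL, highest in replicate 1, and between 101 and 220.0 CPM with Veh. For 20 skeletal muscle genes it was between 3417 and 13479.6 CPM with PRL and between 279.8 and 7843 CPM with Veh.

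Of 14705 genes tested, 76 (0.517%) differed between PRL and Veh in the male DRG at an adjusted p under 0.05 (edgeR quasi-likelihood test). With PRL 42 genes rose (0.286%) and 34 fell (0.231%), the shares against which the called members of the lists below are to be read. All 76 had groups that did not overlap, as did 19.3% of all genes tested. Before adjustment 2189 genes (14.9%) were at a p under 0.05, the share against which the unadjusted counts of the lists below are to be read. Changes were mostly small: 15 of the 76 exceeded 1 on the log2 scale, the size of a 2-fold difference. The call was kept by 24 genes with each of the 6 libraries left out in turn. The count became 36, 31 and 44 without PRL replicates 1, 2 and 3, and 49 and 25 without Veh replicates 1 and 3. Without Veh replicate 1 the 49 calls were 16 rises and 33 falls, and without Veh replicate 2 the 73 calls were 50 rises and 23 falls. The count was 15 (6 rises and 9 falls) with the neutrophil level of each library as a covariate and 41 with the muscle level, while all 76 genes kept their direction with the neutrophil covariate.

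**Figure D1:**
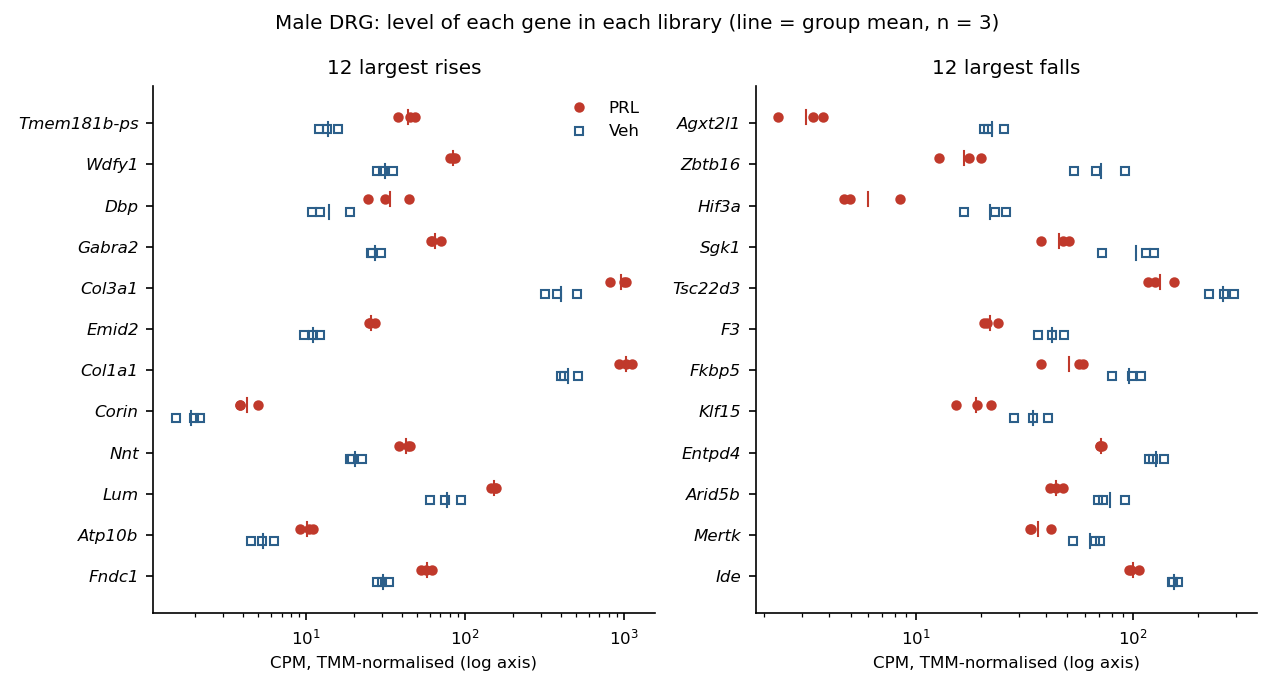
Level of the 12 largest rises (left) and the 12 largest falls (right) in each male DRG library, in CPM normalised by TMM on a log axis; filled circles are the 3 PRL libraries, open squares the 3 Veh libraries and vertical lines the group means. In each gene the 3 PRL libraries lie apart from the 3 Veh libraries, and the falls of Agxt2l1, Zbtb16 and Hif3a are the largest on the log2 scale.

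Several genes that glucocorticoids are known to induce were among the falls. This list, like the others below, was written with earlier results of these data known, so its counts describe the data and test nothing. Of 25 tested members of the glucocorticoid response list 6 fell and none rose, against 0.231% and 0.286% of all genes tested. The median log2 change was -0.55, against 0.00 over all genes tested. The groups did not overlap, lower with PRL, in 14 of the 25, against 9.73% of all genes. Zbtb16, a zinc-finger transcription factor, stood at 19.9, 12.7 and 17.6 CPM with PRL and at 53.6, 92.1 and 67.4 CPM with Veh. Even the highest PRL library lay far below the lowest Veh library. Zbtb16 fell by 2.08 ± 0.19 SE on the log2 scale, a 4.23-fold lower level (adjusted p = 0.000258), and its call was kept without any one library. Tsc22d3, the anti-inflammatory leucine zipper GILZ, was at 127, 118 and 155 CPM with PRL and 225, 294 and 262 CPM with Veh. All 3 PRL libraries were lower, and the gene fell by 0.96 ± 0.13 SE on the log2 scale (adjusted p = 0.00425). Sgk1, a kinase that regulates sodium channels and transporters, was at 37.8, 47.7 and 51.0 CPM with PRL and 71.9, 125 and 115 CPM with Veh, with Veh replicate 1 nearest to the PRL libraries. Sgk1 fell by 1.19 ± 0.19 SE on the log2 scale (adjusted p = 0.0156, and as high as 0.0941 without PRL replicate 1, PRL replicate 2 or Veh replicate 3).

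The other 3 calls of the list were smaller. Fkbp5, a chaperone that holds the glucocorticoid receptor in a low-affinity state, was at 58.7, 37.8 and 56.3 CPM with PRL and 80.7, 109.7 and 99.2 CPM with Veh and fell by 0.92 on the log2 scale (adjusted p = 0.0322). Errfi1, an inhibitor of the EGF receptor, fell by 0.58, and the Krüppel-like transcription factor gene Klf9 fell by 0.55 on the log2 scale. Several members missed the threshold with groups that did not overlap. Among these, chosen after their values were seen, were Ddit4, an inhibitor of the growth kinase mTOR (log2 -0.73, adjusted p = 0.0599), the metallothionein gene Mt2 (log2 -1.30, adjusted p = 0.0842) and the NF-kappaB inhibitor Nfkbia (log2 -0.63, adjusted p = 0.0951). Dusp1 and Cdkn1a, also in the list, overlapped between the groups, at log2 -0.10 and -0.06 (both chosen after their values were seen). The list's exception was Lcn2, also a neutrophil gene, at 68.2, 8.90 and 21.0 CPM with PRL and 5.54, 7.18 and 10.1 CPM with Veh (log2 2.11, adjusted p = 0.167). The receptor gene Nr3c1 itself was at 149.5, 152 and 164 CPM with PRL and 144, 168 and 138 CPM with Veh (log2 0.05, adjusted p = 0.828; named after its value was seen). The list's count of 6 was 2 without PRL replicate 1, PRL replicate 2 or Veh replicate 3, 3 without Veh replicate 2, 1 with the neutrophil covariate and 12 by DESeq2, while its median stayed between -0.62 and -0.48 with each library left out.

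The promoters of the called genes were read for known motifs, on both strands and in the window from 250 bases before to 50 after each annotated start (RefSeq, GRCm38.p6), whose table matched 51 of the 76 genes. That is under 80% of the called genes, so no share over them is given. The full glucocorticoid response element searched, AGAACA and TGTTCT with any 3 bases between them, was in 3 of 27025 genes with a promoter in the table (0.0111%), and 1 of these was Sgk1. Its stretch, chr10:21993641-21993775 on the + strand, is shown because Sgk1 fell and holds that element, in capitals, 189 bases before a start.
Sgk1: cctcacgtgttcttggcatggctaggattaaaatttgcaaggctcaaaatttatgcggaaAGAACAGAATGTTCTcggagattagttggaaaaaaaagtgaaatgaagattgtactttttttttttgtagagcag
Of 25 glucocorticoid response genes 22 were in the table. A looser form, GNACA and TGTNC with any 3 bases between them, which includes the full element, was in Fam107a, Map3k6, Mt1 and Sgk1 among these 22 and in 0.537% of all genes. The Stat5 site TTCNNNGAA was more common, in 9.55% of all genes and in Klf9, Per1, Sgk1 and Tsc22d3 of these 22. In Tsc22d3 a copy lies 207 bases before a start, in capitals in the stretch chrX:140548710-140548821 on the - strand.
Tsc22d3: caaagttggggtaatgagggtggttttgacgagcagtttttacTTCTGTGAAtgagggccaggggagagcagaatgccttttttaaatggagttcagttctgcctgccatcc
A match of letters is not a measured binding site.

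The largest fall with reads in both groups was that of Agxt2l1 (now Etnppl), a lyase of phosphoethanolamine. It was at 2.33, 3.72 and 3.35 CPM with PRL and 21.5, 25.5 and 20.5 CPM with Veh, 7.12-fold lower with PRL in the fit (log2 -2.83 ± 0.31 SE, adjusted p = 0.000952). Hif3a, the hypoxia-inducible factor subunit that can restrain its relatives, stood at 8.42, 4.97 and 4.69 CPM with PRL and 16.8, 25.9 and 23.1 CPM with Veh. PRL replicate 1 was the highest of its group and still below every Veh library. Hif3a fell by 1.86 ± 0.30 SE on the log2 scale (adjusted p = 0.0174, and up to 0.0932 without PRL replicate 2, PRL replicate 3 or Veh replicate 3).

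Klf15, a Krüppel-like factor of amino acid and lipid metabolism, was at 19.2, 15.3 and 22.1 CPM with PRL and 28.5, 40.9 and 34.8 CPM with Veh and fell by 0.87 on the log2 scale (adjusted p = 0.0174, and up to 0.0932 without PRL replicate 1, PRL replicate 2 or Veh replicate 3). F3, the tissue factor that starts coagulation, was at 21.4, 20.6 and 24.0 CPM with PRL and 36.5, 48.3 and 42.4 CPM with Veh (log2 -0.94). Arid5b, a DNA-binding chromatin regulator, was at 47.7, 41.4 and 44.1 CPM with PRL and 69.1, 92.3 and 73.3 CPM with Veh (log2 -0.82). In each of these genes every PRL library lay below every Veh library. Mertk, a receptor kinase with which macrophages and glia take up dying cells, was at 41.9, 34.1 and 33.6 CPM with PRL and 52.8, 70.8 and 66.8 CPM with Veh (log2 -0.79). F3, Arid5b and Mertk kept their calls with each library left out (highest adjusted p 0.0352, 0.0184 and 0.0477), as did Adss, which acts in AMP synthesis (log2 -0.51), Ranbp9, a scaffold protein (log2 -0.45), and the predicted gene 9330159F19Rik (log2 -0.43). Col24a1, a fibrillar collagen, was the sole collagen gene among the falls (log2 -0.51, adjusted p = 0.000952). Smaller falls included Gpt2, a mitochondrial alanine aminotransferase (log2 -0.43), Ly86, a partner of a Toll-like receptor homologue (log2 -0.54), and Abcg1, which exports cholesterol (log2 -0.26). The calls of these 3 were lost, among others, without PRL replicate 1, PRL replicate 2 or Veh replicate 3 (up to adjusted p = 0.104, 0.19 and 0.161).

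Bcl6, a transcriptional repressor of immune cells, was at 40.9, 32.8 and 43.2 CPM with PRL and 56.0, 59.6 and 56.7 CPM with Veh. Its PRL libraries were all lower, and the gene fell by 0.56 on the log2 scale (adjusted p = 0.023, and up to 0.103 when a library other than PRL replicate 3 was left out). Bcl6 is known as a gene that Stat5 represses, and its promoter is shown for the 3 copies of TTCNNNGAA, in capitals, that lie 168, 122 and 88 bases before a start in chr16:23981303-23981511 on the - strand.
Bcl6: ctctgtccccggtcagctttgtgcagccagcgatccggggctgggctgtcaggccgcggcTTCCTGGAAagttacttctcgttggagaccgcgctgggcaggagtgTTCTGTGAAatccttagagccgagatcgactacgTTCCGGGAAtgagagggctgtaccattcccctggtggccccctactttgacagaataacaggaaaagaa
The Stat5 targets of the prolactin list, given below, did not pass the test.

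Genes of cholesterol synthesis were among the rises. Of 20 tested members 4 rose and none fell, against 0.286% and 0.231% of all genes. A positive change was seen in 18, and the median was 0.19 on the log2 scale. In 13 of the 20 all PRL libraries were higher than all Veh libraries, against 9.62% of all genes. Lss, which closes the sterol ring system, was at 70.6, 74.7 and 71.7 CPM with PRL and 45.6, 48.4 and 41.0 CPM with Veh. The libraries within each group lay close together, and Lss rose by 0.69 ± 0.09 SE on the log2 scale (adjusted p = 0.00333). Cyp51, the sterol demethylase that follows Lss, was at 212, 243 and 214 CPM with PRL and 160.4, 174 and 157 CPM with Veh (log2 0.44, adjusted p = 0.0174). Insig1, which holds the sterol sensor back in the endoplasmic reticulum and is itself a target of that sensor, was at 109.9, 123 and 112 CPM with PRL and 83.2, 84.5 and 80.1 CPM with Veh (log2 0.48, adjusted p = 0.0197). The lowest PRL library of each of these 3 was above the highest Veh library.

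Of the members that did not pass, Mvd, an enzyme of the mevalonate branch, was at log2 0.39 (adjusted p = 0.0978) and Sc4mol (Msmo1), a sterol oxidase, at 0.23 (adjusted p = 0.0982), both without overlap between the groups and chosen after their values were seen. Hmgcs1 was listed at 0 reads in all 6 libraries. Scarb1, the HDL receptor, which is not in the list, also rose, from 25.6, 24.4 and 23.0 CPM with Veh to 40.5, 35.6 and 33.8 CPM with PRL (log2 0.59, adjusted p = 0.0038). Lss and Scarb1 kept their calls with each library left out. The list's count of 4 was 2 without PRL replicate 2, Veh replicate 1 or Veh replicate 3, 0 with the neutrophil covariate, where its median was 0.18, and 8 by DESeq2.

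Promoters of 12 of the 20 tested cholesterol genes were in the RefSeq table, too few for a share over the list. Those of Lss, Cyp51 and Insig1 are shown for a CCAAT box, a motif found in 41.1% of all genes, in capitals and read as ATTGG where it lies on the other strand. The box begins 62 bases before the start in Lss (chr10:76531483-76531604, + strand), 29 in Cyp51 (chr5:4104698-4104786, - strand) and 216 in Insig1 (chr5:28071162-28071260, + strand).
Lss: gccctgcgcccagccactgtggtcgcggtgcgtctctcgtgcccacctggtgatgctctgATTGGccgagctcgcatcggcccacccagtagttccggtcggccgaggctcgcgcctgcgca
Cyp51: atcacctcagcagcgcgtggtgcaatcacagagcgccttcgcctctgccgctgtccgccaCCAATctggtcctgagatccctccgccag
Insig1: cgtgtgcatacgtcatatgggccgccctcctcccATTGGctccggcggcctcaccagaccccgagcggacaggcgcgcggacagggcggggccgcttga
The sterol response element searched, TCACNCCAC, was in 1.44% of all genes and in none of these windows, which says only that these letters do not occur there.

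**Figure D2:**
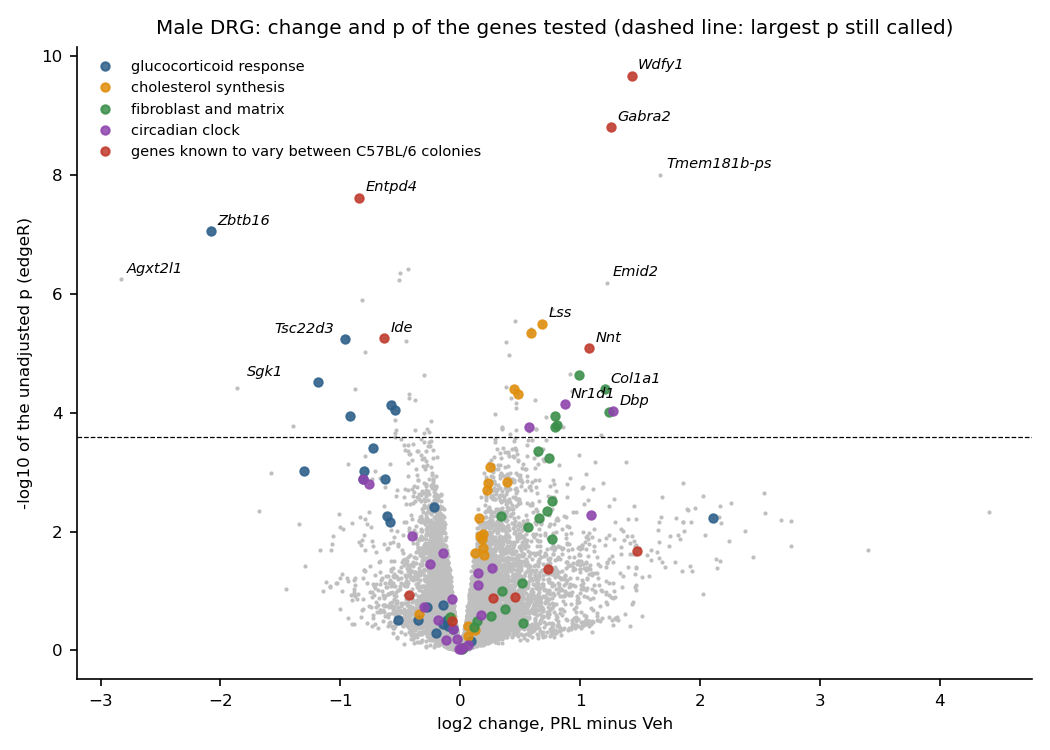
Log2 change between PRL and Veh in the male DRG (x axis) against -log10 of the unadjusted edgeR p (y axis) for the genes tested, with 5 gene lists in colour and the dashed line at the largest p still called. LOC100642166, with no read in any PRL library, is left out. Called glucocorticoid response genes (blue) lie on the left, called cholesterol (orange), matrix (green) and clock (purple) genes on the right, and genes known to vary between C57BL/6 colonies (red) hold the smallest p on both sides.

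Genes of the connective tissue matrix were also among the rises. Of 25 tested fibroblast and matrix genes 6 rose and none fell, against 0.286% and 0.231% of all genes. The median log2 change was 0.56, and 12 had groups that did not overlap, all higher with PRL, against 9.62% of all genes. Col1a1, a chain of the main fibrillar collagen, was at 1029, 928 and 1123 CPM with PRL and 401, 517 and 419.6 CPM with Veh. The lowest PRL library stood well above the highest Veh library, and Col1a1 rose by 1.20 ± 0.20 SE on the log2 scale, a 2.30-fold higher level (adjusted p = 0.0174). Col3a1, the collagen of soft connective tissue, was at 999, 821 and 1037 CPM with PRL and 317, 510.0 and 381 CPM with Veh (log2 1.24 ± 0.22 SE, adjusted p = 0.0295). Lum, a small proteoglycan that binds collagen fibrils, was at 147, 156 and 154 CPM with PRL and 74.9, 94.7 and 59.8 CPM with Veh (log2 0.99 ± 0.15 SE, adjusted p = 0.0123). For these 3 genes the PRL libraries lay closer together, relative to their level, than the Veh libraries. Col1a2, Col14a1 and the matrix protease Mmp2 rose by 0.80, 0.79 and 0.79 on the log2 scale. Across the list, 24 members had a positive change and 1 a negative one. Dcn (log2 0.12) and Pdgfra (log2 0.02), both chosen after their values were seen, did not separate the groups. The count of 6 was 1 without any one of the PRL replicates and 0 without Veh replicate 1 or 3. It was 3 with the muscle covariate, 0 with the neutrophil covariate, where the median was 0.43, and 9 by DESeq2.

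Matrix genes outside the list rose as well. Emid2 (Col26a1), a collagen with an EMI domain, was at 26.9, 25.0 and 24.7 CPM with PRL and 9.71, 11.1 and 12.1 CPM with Veh and rose by 1.22 ± 0.13 SE (adjusted p = 0.000952), a call kept with each library left out. Fndc1, a secreted protein with fibronectin domains, was at 61.7, 53.1 and 56.8 CPM with PRL and 28.0, 33.1 and 30.1 CPM with Veh (log2 0.92, adjusted p = 0.0123, and up to 0.0852 without PRL replicate 1, Veh replicate 1 or Veh replicate 3). Col28a1, a collagen of peripheral nerve, rose by 0.35 (adjusted p = 0.0418), with the call lost for each library left out but PRL replicate 3 (up to 0.181). Of 14 basement membrane genes 1 passed, Nid2, a nidogen that links laminin to collagen, at 99.3, 98.4 and 98.3 CPM with PRL and 58.9, 69.0 and 64.9 CPM with Veh (log2 0.62, adjusted p = 0.0223, and up to 0.104 when a library other than Veh replicate 2 was left out). All 14 had a positive change, the median was 0.46, in 13 the groups did not overlap, against 9.62% of all genes higher with PRL, and DESeq2 called 9. Lama2, a laminin chain of Schwann cell and muscle basement membranes, had the next smallest p, at log2 0.43 (adjusted p = 0.0599).

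Of 23 Schwann and satellite glia genes 1 rose and none fell, against 0.286% and 0.231% of all genes, and the list's median was 0.19. At an unadjusted p under 0.05 were 13, against 14.9% of all genes. Without overlap between the groups 8 were higher and 1 was lower with PRL, against 9.62% and 9.73% of all genes. DESeq2 called 6, and the edgeR count was 0 when a library other than Veh replicate 2 was left out. Myelin genes that did not pass, named after their values were seen, were Pmp22 (log2 0.56, adjusted p = 0.065) and Prx (log2 0.37, adjusted p = 0.165), both without overlap, and Mbp (log2 0.33, adjusted p = 0.235), which overlapped. Fabp7, a lipid-binding protein of satellite glia, pointed the other way, at 143, 149.7 and 119 CPM with PRL and 173, 178 and 159 CPM with Veh (log2 -0.31, adjusted p = 0.145). None of 20 vascular genes passed edgeR's test (9 at an unadjusted p under 0.05, 2 called by DESeq2), with a median of 0.22; the smallest p was that of Kdr, a VEGF receptor (log2 0.54, adjusted p = 0.0801), followed by Aplnr, the apelin receptor (log2 1.19). The share of connective tissue, nerve or vessel in each ganglion was not measured, and its part in these results was not tested.

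**Figure D3:**
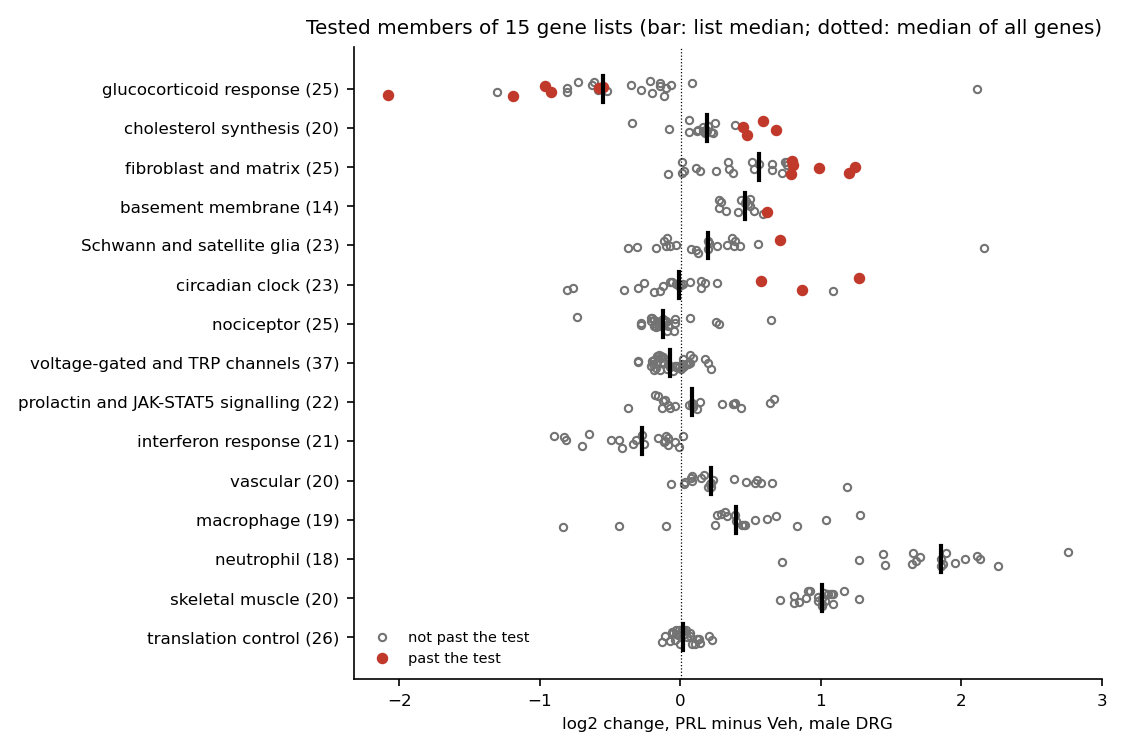
Log2 change between PRL and Veh in the male DRG (x axis) of each tested member of 15 gene lists, with the number tested in brackets; filled points passed the edgeR test, open points did not, bars are list medians and the dotted line is the median of all genes tested. The glucocorticoid response list lies to the left with a median of -0.55 and 6 filled points, the matrix and cholesterol lists to the right, and the neutrophil and muscle lists lie far to the right without a filled point.

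Among the clock genes 3 of 23 rose and none fell, against 0.286% and 0.231% of all genes, and the list's median was -0.01. Dbp, a transcription factor that the clock drives and that acts on its output genes, was at 24.6, 31.2 and 44.7 CPM with PRL and 10.8, 12.2 and 18.8 CPM with Veh. It rose by 1.28 ± 0.23 SE on the log2 scale (adjusted p = 0.029). Nr1d1, a repressor of the clock's positive arm, was at 54.3, 67.7 and 87.1 CPM with PRL and 36.1, 39.6 and 38.9 CPM with Veh (log2 0.87 ± 0.15 SE, adjusted p = 0.0242). Per3, a member of the period family, was at 57.4, 69.6 and 80.5 CPM with PRL and 45.0, 44.8 and 49.6 CPM with Veh (log2 0.58 ± 0.11 SE, adjusted p = 0.0418). PRL replicate 3 was the highest library in each of the 3 and PRL replicate 1 the lowest of its group. Arntl (Bmal1), the activator that Nr1d1 represses, was at 11.3, 8.90 and 6.79 CPM with PRL and 16.5, 16.2 and 12.9 CPM with Veh (log2 -0.76, adjusted p = 0.101), lowest in PRL replicate 3. Per1, which glucocorticoids also induce, was at log2 -0.81 (adjusted p = 0.0951), and Gm129 (Ciart), another clock repressor, at 1.09 (adjusted p = 0.161). Groups did not overlap in 4 clock genes higher and 7 lower with PRL, against 9.62% and 9.73% of all genes. The time of day at which tissue was taken is not in the labels. The count of 3 was 0 without PRL replicate 2, PRL replicate 3, Veh replicate 1 or Veh replicate 2 and 1 without Veh replicate 3, 0 with either the muscle or the neutrophil covariate and 5 by DESeq2.

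The promoter of Per3 is shown because it was the only one of the 3 called clock genes with a D-box, TTATGTAA, the element that Dbp binds. D-boxes were in 1.11% of all genes in the table and in no other tested clock gene that it matched. Another motif searched, the E-box CACGTG, was in 8.09% of all genes and in 0 of the 3 called clock genes. Per3 holds 2 D-boxes, in capitals, 205 and 158 bases before its start in chr4:151044756-151044915 on the - strand.
Per3: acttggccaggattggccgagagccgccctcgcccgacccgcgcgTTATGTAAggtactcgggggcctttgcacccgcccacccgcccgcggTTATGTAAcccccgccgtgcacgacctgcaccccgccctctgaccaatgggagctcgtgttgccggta

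The receptor and its pathway gave no call. Prlr was at 15.3, 15.3 and 12.5 CPM with PRL and 15.7, 11.3 and 13.2 CPM with Veh, the groups overlapped, and the change was 0.09 ± 0.15 SE on the log2 scale (adjusted p = 0.814). No gene of the 22 in the prolactin and JAK-STAT5 list passed edgeR's test, 5 were below 0.05 unadjusted, against 14.9% of all genes, DESeq2 called 3, and the median was 0.08. The smallest p was that of Bcl2l1, a survival gene, at 68.4, 62.0 and 65.6 CPM with PRL and 72.9, 87.5 and 93.0 CPM with Veh (log2 -0.37, adjusted p = 0.0801). Ptpn11, a phosphatase that acts below the receptor, followed at log2 -0.18 (adjusted p = 0.117). Of the feedback inhibitors, Cish was at 6.76, 7.45 and 8.13 CPM with PRL and 5.69, 4.38 and 6.95 CPM with Veh (log2 0.39 ± 0.20 SE, adjusted p = 0.386). Socs2 was at 18.7, 24.6 and 15.5 CPM with PRL and 17.6, 11.0 and 16.2 CPM with Veh (log2 0.38 ± 0.19 SE, adjusted p = 0.382). Both overlapped between the groups. Igf1, a growth factor that growth hormone induces through Stat5, was at 43.6, 35.7 and 42.6 CPM with PRL and 20.4, 30.1 and 26.4 CPM with Veh, without overlap (log2 0.67, adjusted p = 0.177), and Stat5a was at log2 0.43 (adjusted p = 0.299). Cish, Socs2, Igf1 and Stat5a were named after their values were seen.

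The lists of sensory neuron genes held no call. No nociceptor gene of 25 was called by edgeR or DESeq2 (6 at an unadjusted p under 0.05). The median was -0.12, 21 had a negative change, and 3 were lower without overlap, against 9.73% of all genes. Mrgpra3, an itch receptor, had the smallest p, at 4.54, 4.14 and 5.55 CPM with PRL and 8.42, 6.62 and 8.61 CPM with Veh (log2 -0.73, adjusted p = 0.0951). Calcb, a CGRP neuropeptide, followed at log2 -0.28 (adjusted p = 0.167). Of 37 voltage-gated and TRP channel genes none passed edgeR's test, and DESeq2 called 2. At an unadjusted p under 0.05 were 5, against 14.9% of all genes. The median was -0.07, 24 had a negative change, and all changes lay between -0.30 and 0.22. The smallest p was that of Scn1a, a sodium channel also in the list of myelinated neurons, at 179, 217 and 209 CPM with PRL and 256, 249 and 239 CPM with Veh (log2 -0.30, adjusted p = 0.134). Trpv1, the capsaicin receptor, was at 90.9, 65.7 and 58.6 CPM with PRL and 87.0, 62.0 and 78.8 CPM with Veh (log2 -0.09). None of 17 myelinated sensory neuron genes, 12 nerve injury genes, 13 hormone receptor genes, 22 immediate early genes or 26 translation control genes passed edgeR's test either, and at an unadjusted p under 0.05 their counts were 2, 0, 1, 1 and 1; DESeq2 called 2 of the first list and 0 of the others. Of single genes outside the lists, the synaptic adhesion gene Lrrtm4 rose by 0.85, Nbea, a trafficking protein of synaptic receptors, by 0.38, and the guidance genes Sema4c and Sema6d by 0.47 and 0.35 on the log2 scale. Of these 4, Nbea kept its call with each library left out, and the others reached an adjusted p of 0.181, 0.117 and 0.186 without single libraries, PRL replicate 1 and Veh replicate 3 among them. Ptges, the enzyme that makes prostaglandin E in inflammation, rose from 10.5, 9.88 and 11.5 CPM to 17.7, 15.5 and 16.3 CPM (adjusted p = 0.0418), a call lost without any one library (up to 0.181).

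Several of the smallest p-values belonged to genes with an even difference between the groups. Wdfy1, an endosomal adaptor of Toll-like receptor signalling, was at 84.1, 86.4 and 80.7 CPM with PRL and 27.9, 35.2 and 30.3 CPM with Veh. It rose by 1.43 ± 0.08 SE, or 2.70-fold (adjusted p = 3.15e-06). Gabra2, which encodes an alpha chain of the inhibitory GABA-A receptor, was at 60.6, 70.6 and 62.3 CPM with PRL and 25.5, 25.8 and 29.7 CPM with Veh (log2 1.26 ± 0.08 SE, adjusted p = 1.14e-05). In both genes all PRL libraries were far above all Veh libraries. Gabra2 was the only one of 11 tested GABA-A subunits to pass; Gabrg1 had the next smallest p (log2 -0.27, adjusted p = 0.202) and the list's median was -0.17. Nnt, the mitochondrial enzyme that makes NADPH from the proton gradient, was at 45.3, 38.4 and 43.6 CPM with PRL and 18.9, 19.4 and 22.3 CPM with Veh (log2 1.07 ± 0.15 SE, adjusted p = 0.00527). Entpd4, a nucleotide-hydrolysing enzyme of Golgi and lysosome, was at 72.1, 70.9 and 70.8 CPM with PRL and 139.5, 124 and 119 CPM with Veh (log2 -0.84 ± 0.07 SE, adjusted p = 8.81e-05); a near-identical copy, Entpd4b, makes its count uncertain. Ide, the insulin-degrading enzyme, was at 96.3, 98.3 and 106 CPM with PRL and 161, 154 and 152 CPM with Veh (log2 -0.63 ± 0.08 SE, adjusted p = 0.00425). Within each group the libraries of these 5 genes lay close together. All 5 calls were kept with each library left out, but with the neutrophil covariate Nnt (adjusted p = 0.0844) and Ide (adjusted p = 0.0856) lost theirs.

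These 5 genes are, as background, reported to differ between colonies and substrains of C57BL/6 mice. In the list of such genes, written with earlier results of these data known, 3 of 11 tested members rose and 2 fell. Over all genes tested 0.286% rose and 0.231% fell. Among the others, Nlrp12 was at log2 1.47, Mmrn1 at 0.73, Fgfbp3 at -0.43, Dock2 at 0.45 and Cyfip2 at -0.07, and none passed the test (adjusted p 0.25 to 0.673). Fgfbp3, a secreted carrier of FGFs, was the one of these whose groups did not overlap. The labels give C57BL/6J for both groups and name no colony, supplier or litter, so the part of mouse origin in these results was not tested. A further gene with groups far apart was the pseudogene Tmem181b-ps, at 48.3, 38.0 and 44.8 CPM with PRL and 13.4, 12.0 and 15.9 CPM with Veh (log2 1.66 ± 0.13 SE, adjusted p = 4.84e-05); reads from its parent family may be counted in it. LOC100642166, a predicted gene whose symbol the reference tables do not hold, had 0 reads in each of the 3 PRL libraries and 21, 21 and 18 reads in the Veh libraries. Set against a limit of 3 reads over the PRL group, it was at least 18.4-fold lower with PRL (edgeR adjusted p = 0.00425). The same gene had 0 reads in the 12 PRL libraries and 15 to 35 reads in the 12 Veh libraries made by rRNA depletion, over both sexes and both tissues.

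The remaining rises were spread over many functions. Corin, the protease that activates atrial natriuretic peptide, was low, at 4.99, 3.83 and 3.83 CPM with PRL and 1.52, 2.13 and 1.97 CPM with Veh (log2 1.18, adjusted p = 0.0461), and its call was lost without any one library (up to 0.209). Atp10b, a lipid flippase, was at 11.0, 10.3 and 9.19 CPM with PRL and 4.47, 6.29 and 5.29 CPM with Veh (log2 0.94, adjusted p = 0.0184, and up to 0.103 without PRL replicate 1, PRL replicate 2, Veh replicate 1 or Veh replicate 3). Plekhg2, an exchange factor of small GTPases, was at 110.5, 112 and 111 CPM with PRL and 59.1, 68.8 and 68.1 CPM with Veh (log2 0.77 ± 0.09 SE, adjusted p = 0.00219). It was among the 13 genes called under all 14 alternatives, as were Tmem181b-ps, Wdfy1, Gabra2, Emid2, 9330159F19Rik, Adss, Col24a1, Arid5b, Entpd4, Zbtb16 and Agxt2l1. Other single genes that rose were Rara, a retinoic acid receptor (log2 0.58), Tet1, which oxidises methylcytosine (log2 0.46), and Crtc3, a CREB coactivator (log2 0.41). Crtc3 lost its call without Veh replicate 3 (adjusted p = 0.063), and Rara and Tet1 without several libraries (up to 0.19 and 0.119), PRL replicates 1, 2 and 3 included. Rab34 and Tlcd1 rose as well, at log2 0.46 and 0.63.

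Blood and muscle genes differed strongly between single libraries. None of 18 neutrophil genes passed edgeR's test, although 17 were below 0.05 unadjusted, all 18 had a positive change and the median was 1.86; DESeq2 called 1. S100a8, a calcium-binding protein that neutrophils hold in quantity, was at 228, 27.9 and 88.4 CPM with PRL and 15.01, 38.3 and 42.0 CPM with Veh (log2 1.87, adjusted p = 0.195; named after its value was seen). Mpo, the granule enzyme myeloperoxidase, was at 15.1, 5.69 and 8.42 CPM with PRL and 1.74, 2.69 and 3.73 CPM with Veh, without overlap (log2 1.86, adjusted p = 0.0978). The neutrophil median was 1.02 without PRL replicate 1. Of 20 skeletal muscle genes none was called by either tool, none was below 0.05 unadjusted and none was without overlap; the median of 1.01 was 0.05 without PRL replicate 3 and 2.67 without Veh replicate 1. None of 19 macrophage genes passed edgeR's test (median 0.40, 6 below 0.05 unadjusted, DESeq2 1), and 16 had a positive change and 3 a negative one. Cd163, a scavenger receptor of tissue macrophages that glucocorticoids induce, had the lowest change of the list. It was at 20.8, 12.5 and 16.5 CPM with PRL and 17.7, 39.1 and 32.8 CPM with Veh (log2 -0.84, adjusted p = 0.163). No neutrophil or muscle gene was at 0 in all 6 libraries. Of 14 central nervous system genes 3 were (Olig2, Slc32a1 and Slc6a5), while others of that list had reads. Its summed level was between 36.9 and 55.3 CPM with PRL and between 38.0 and 48.8 CPM with Veh. The neutrophil level of 2 PRL libraries was above every Veh library, and with that level as a covariate the glucocorticoid list held 1 call and the cholesterol, matrix and clock lists 0. The part of neutrophil RNA in those results was not tested.

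The shorter lists also held no call by edgeR. Of 21 interferon response genes 20 had a negative change (median -0.27), 6 were lower without overlap, against 9.73% of all genes, and none was below 0.05 unadjusted; Mx2, an antiviral GTPase, was at 3.21, 3.41 and 3.35 CPM with PRL and 7.43, 4.38 and 3.63 CPM with Veh (log2 -0.65, adjusted p = 0.431). Of 14 stress response genes 13 had a negative change (median -0.15), 4 were below 0.05 unadjusted and DESeq2 called 1. Dnajb1, a partner of the heat shock protein Hsp70, was at 32.9, 33.2 and 40.2 CPM with PRL and 50.7, 42.9 and 45.1 CPM with Veh (log2 -0.38, adjusted p = 0.104). The heat shock protein gene Hsp90aa1 was at log2 -0.19 (adjusted p = 0.181), also without overlap. Of 15 fatty acid and PPAR target genes 3 were below 0.05 unadjusted and DESeq2 called 2. Of 12 cytokine and chemokine genes 4 were below 0.05 unadjusted. Ccl7, which attracts monocytes, was at 2.88, 1.66 and 2.97 CPM with PRL and 0.910, 1.23 and 0.207 CPM with Veh (log2 1.66, adjusted p = 0.231). Of 17 cell cycle genes 16 had a positive change (median 0.43), led by the replication helicase genes Mcm2 and Mcm3 (log2 0.43 and 0.67, adjusted p = 0.246 and 0.272). DESeq2 called no cytokine, cell cycle or interferon response gene, and neither tool called one of the 11 erythroid, 8 lymphocyte, 12 adipocyte, 13 bone and cartilage, 7 epidermis or 4 central nervous system genes tested.

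**Figure D4:**
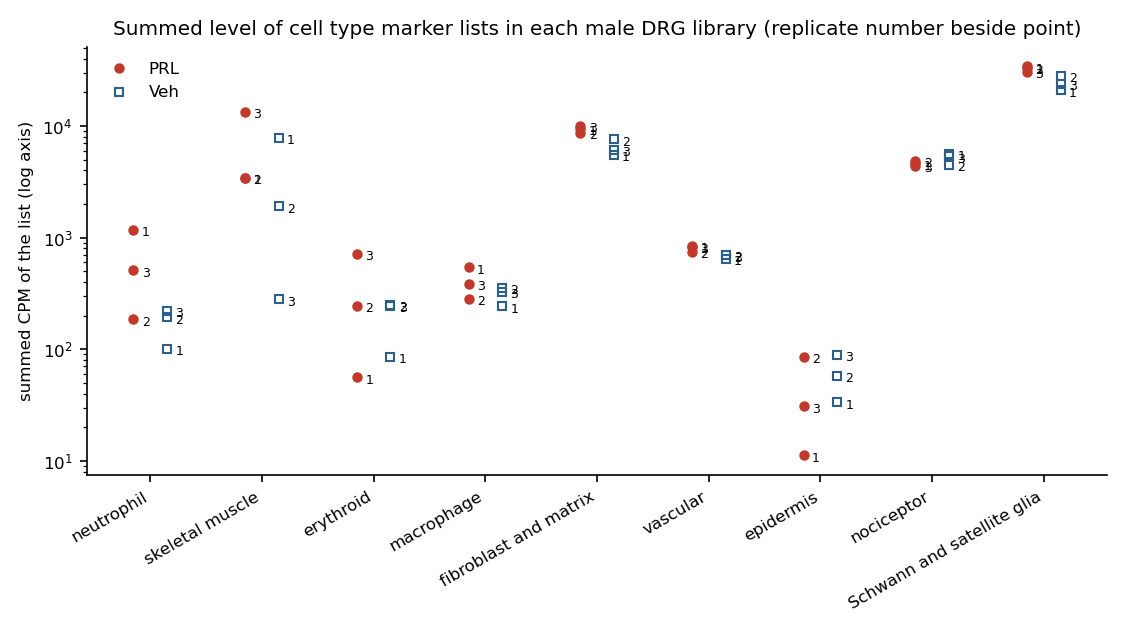
Summed level, in CPM on a log axis, of 9 marker lists in each male DRG library, with the replicate number beside each point; filled circles are PRL and open squares Veh. Neutrophil genes are highest in PRL replicate 1 (1169.8 CPM), muscle genes range from 279.8 to 13479.6 CPM, and the nociceptor list lies within a narrow band in all 6 libraries.

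Female DRG libraries of the same kit, 3 PRL and 3 Veh, shared no library with the male comparison and were set beside it. Both sexes were in the same fit and share its estimates of spread, so their calls are not independent. In fits of only the 6 libraries compared, 63 genes were called in males and 34 in females. In females 96 genes passed (0.653%), 43 higher (0.292%) and 53 lower (0.36%) with PRL. Of the 76 genes called in males 47 were called in females in the same direction, 22 higher and 25 lower, which is 61.8% of the male calls and 49.0% of the female ones, and none was called in the opposite direction. The sign was shared by 73 of the 76. Zbtb16 was at log2 -2.02 ± 0.18 SE in females (adjusted p = 0.000238) and Tsc22d3 at -0.96 ± 0.13 SE, each within 1 SE of its male value. Agxt2l1 was at -1.89 ± 0.29 SE in females against -2.83 ± 0.31 SE in males. In females 12 of the 25 glucocorticoid response genes fell, including Mt2 (-2.14, against -1.30 in males), and 7 of the fibroblast and matrix genes rose. Wdfy1, Gabra2, Nnt, Entpd4 and Ide all passed in females too, Gabra2 at 1.32, Nnt at 1.32, Entpd4 at -0.93 and Ide at -0.82.

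The male change was tested against the female change directly. No gene passed edgeR's test of that difference, 537 (3.65%) were below 0.05 unadjusted, and 1 was called by DESeq2. Of the 76 genes 15 were below 0.05 unadjusted, but these were chosen by their male change, and nothing is read from that count. The clock gene Nr1d1 held the smallest p. It rose by 0.87 in males and stood at -0.47 ± 0.15 SE in females, where the PRL mean was 32.98 ± 4.72 CPM and the Veh mean 45.6 ± 4.89 CPM (SD, n = 3). Its difference was 1.34 ± 0.21 SE (adjusted p = 0.513). Arntl had the opposite pattern, at -0.76 in males and 0.47 in females (difference -1.23, adjusted p = 0.993). Dbp stood at -0.18 in females against 1.28 in males, and Per3 at 0.07 against 0.58. The other 3 of the 5 smallest p-values belonged to the chaperone system: Ahsa2 and Chordc1, partners of the heat shock protein Hsp90, and Dnaja1, a partner of Hsp70. They were at -0.33, -0.23 and -0.20 in males and 0.16, 0.13 and 0.19 in females (adjusted p of the difference 0.993 for each). Banp, a nuclear matrix protein, fell by 0.55 in males and was at 0.00 in females (chosen after its value was seen). For Prlr the difference was -0.07.

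**Figure D5:**
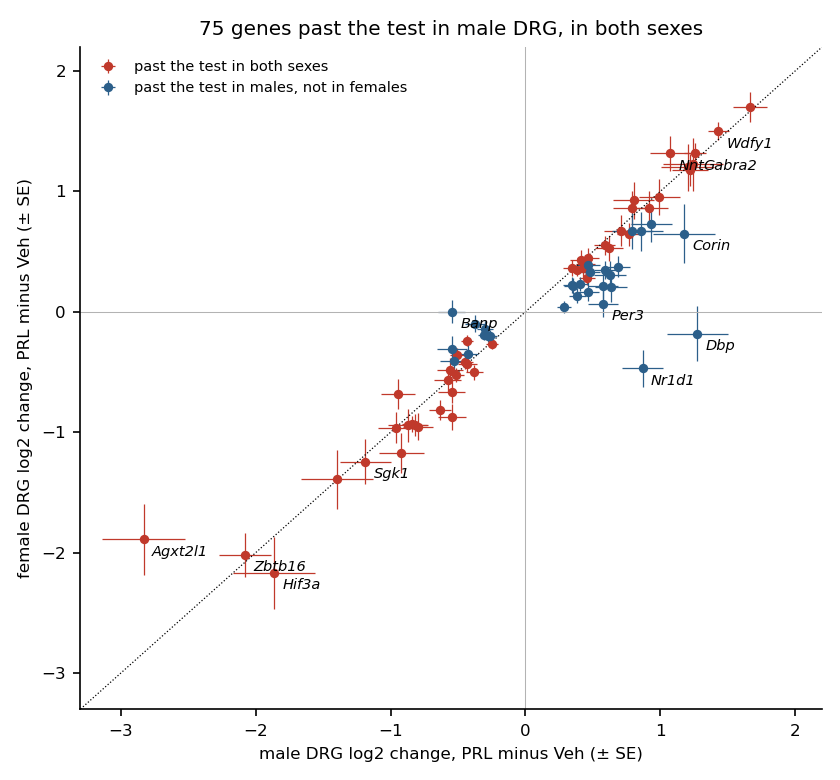
Log2 change between PRL and Veh in male DRG (x axis) and female DRG (y axis), with standard errors from the edgeR fit, of 75 of the 76 genes called in males (LOC100642166, with no PRL read in either sex, is left out); red points were called in both sexes and blue points passed the threshold in males and not in females. Most points lie near the dotted line of equal change, and Nr1d1, Dbp and Per3 lie below it, though no gene passed the test of the difference.

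Male paw tissue, from libraries of the same kit fitted on their own, gives the same genes at the injected site. There 3301 of 14721 genes (22.4%) passed. Among the male paw Veh libraries, replicate 2 stood apart, with 6866540 gene reads against 13470800 and 12469700 in replicates 1 and 3. In replicate 2, 55.5% of records mapped to several places, against 42.4% and 42.3% in replicates 1 and 3. Of 71 male DRG calls tested in paw 46 had the same sign, 23 were called in the same direction and 10 in the opposite one. The difference between the tissues was not tested. Wdfy1, Nnt, Tmem181b-ps, Entpd4 and Ide were called in paw in their DRG direction, at log2 1.19, 2.08, 1.64, -0.87 and -0.94. Of the cholesterol genes called in the DRG, Lss was in paw at -1.04, Cyp51 at -0.85 and Insig1 at -0.83. Each of these was called in paw, in the direction opposite to that in the DRG. Of the collagens, Col1a1 was at 1.22, Col3a1 at 1.31 and Col24a1 at 1.99 in paw, against -0.51 for Col24a1 in the DRG, while Col28a1 was at -0.17 and did not pass there. Of the glucocorticoid response genes, Sgk1 was at -1.10 and Errfi1 at -1.35 in paw, whereas Zbtb16 was at -0.09 and Fkbp5 at 0.30 and neither passed the test there.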

How the data were processed

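The deposited files hold whole-number counts of reads per gene symbol, 1 file per library, without normalization. Per the submitters' processing notes the authors used bcl2fastq, TopHat2 and HTSeq with mm9; their versions, the counting mode and its strandedness were not given in the sources used here. From each file 5 HTSeq summary rows were dropped; between 34.5% and 35.2% of records were outside genes and 37.2% to 37.9% mapped to several places. Replicate libraries differed by more than sampling noise (chi-square per degree of freedom 4.22 to 10.3).

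The 6 male and 6 female rRNA-depleted DRG libraries entered 1 fit in edgeR 4.0.16 (R 4.3.3, limma 3.58.1): TMM scaling, filterByExpr (14705 of 22609 genes), a quasi-likelihood F test and Benjamini-Hochberg adjustment over all genes, with 0.05 as threshold and a mean per group. The SE of a log2 change is its size divided by the square root of F. Male paw values come from a like fit of 12 paw libraries. Adjusted p-values given for a library left out or for the neutrophil covariate come from the repeated fits listed below. All other p-values in the text come from the main DRG and paw fits. The script was tested on simulated data. The comparison was repeated with DESeq2 1.42.0, with RLE scaling, without a filter, at 1 CPM in 3 libraries, with a replicate block, with a muscle or neutrophil covariate (the mean log2 CPM of the list), on only the 6 libraries compared, and without each library in turn.

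The libraries and the 33 gene lists were chosen with earlier results of these data known. Named genes were Prlr; called genes, with all values for the 12 largest rises and falls (mean log2 CPM of at least 1, predicted genes passed over); up to 6 called members of a list, or the 2 of smallest p; all genes known to vary between colonies; the check markers; and the 5 of smallest p for the sex difference. Others are said to be chosen after their values were seen. Promoters came from RefSeq (GRCm38.p6, 32851 windows of 27025 genes); no coordinate was converted to mm9, the build of the reads. Libraries made with another kit were not used. Some genes that the rule names are not reported here.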

Additional observations from a re-analysis of the deposited data

How the results depend on the processing

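The 76 male calls became 305 by DESeq2 (162 rises, 143 falls), 41 with the muscle covariate, 15 with the neutrophil covariate and 38 with the replicate block, and lay between 25 (without Veh replicate 3) and 73 (without Veh replicate 2) with 1 library left out. They were 78 with RLE scaling, 76 at 1 CPM, 89 without a filter (54 rises) and 63 in the fit of 6 libraries (42 rises, 21 falls), of which 46 were among the 76. The 96 female calls became 208 by DESeq2, 36 with the muscle covariate, 57 with the neutrophil covariate, 34 in the fit of 6 libraries and 48 with the replicate block, and 20 to 171 with 1 library left out. The sex difference had 1 call by DESeq2 and 0 in each other setting. The cause of these moves was not tested. Same-numbered male libraries showed no sign of pairing. Their deviations from the group means correlated at -0.12, -0.09 and -0.25 across genes, and no PRL library correlated best with its own number. With 3 libraries a group, and single ones apart in muscle or neutrophil RNA, this check cannot exclude pairing.

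None of the 76 called genes changed direction. Among other single values, the neutrophil covariate turned Dock2 (-0.12), Itgam (-0.11), Lcn2 (-0.064), Mobp (-1.35), S100a8 (-0.20), Fkbp5 in paw (-0.53) and the male minus female change of Prlr (0.023). With 1 library left out, log2 changes lay between -0.31 and 1.49 for Beta-s, -0.076 and 0.63 for Bpgm, -0.0046 and 0.19 for Hoxb8, -0.99 and 1.20 for Mobp, -0.012 and 0.23 for Prlr, -0.18 and 0.061 for its male minus female change, and -0.46 and 0.13 for Zbtb16 in paw. With 3 libraries a group and 8986530 to 13327100 gene reads, a gene that missed the threshold is not shown to be unchanged.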
